A study of Rattus norvegicus with 8 samples.

Results

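The genes described here move zinc, iron and copper across membranes, bind them, or make and break down heme. They were taken from the array's annotation by symbol: every zinc transporter of the Slc30 and Slc39 families, plus 19 symbols named singly for iron, heme, copper and metallothionein. No probe set carried Slc11a1, Fth1, Ftl1 or Mt1a as its single symbol, which left 36 of the 14217 genes measured. Mt1a is a synonym of Mt1 in RefSeq, and Mt1 was measured. Each was read from its brightest probe set over the 8 arrays.

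The kidneys came from female Sprague-Dawley rats aged 29 weeks that had eaten a formulated low-Si feed for 26 weeks. Both groups ate that feed. The Si deplete rats drank low-Si water and received 0.17 mg Si daily for each kg of body weight, whereas the Si replete rats drank water supplemented with orthosilicic acid and received 4.1 mg. Total RNA of each whole left kidney, ground in liquid nitrogen, went onto its own Affymetrix rat genome array, with 4 rats per group. The comparison asks which transport genes differ in the kidney after long dietary silicon deprivation. Whole tissue was measured, so fewer cells of a type and less RNA per cell cannot be told apart. Rats were housed several to a cage, and which of these rats shared a cage is not given in the sources used here.

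Zinc leaves the cytosol through the Slc30 (ZnT) exporters, to the outside of the cell or into organelles, and enters it through the Slc39 (ZIP) importers. Metallothioneins bind the surplus, and the zinc sensor Mtf1 switches on their genes and that of the exporter Slc30a1 by binding metal response elements. Iron enters kidney tubule cells with transferrin or through Slc11a2, leaves through Slc40a1 (ferroportin), and is built into heme by a pathway that starts with the 5-aminolevulinate synthases and ends with ferrochelatase. Copper enters through Slc31a1 and is pumped onward by Atp7a and Atp7b.

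The 3 promoter windows below are shown because their genes are the textbook targets of zinc sensing and because Mt2A and Slc30a1 differed in opposite directions in these kidneys. Each is the 250 bases before the RefSeq start of the gene in rat build GRCr8, printed 5′ to 3′ on the strand of the gene. Capitals mark the core of the metal response element, TGCACNC or TGCGCNC, searched on both strands, so that the reverse complements appear as GNGTGCA and GNGCGCA. No matches overlapped in these 3 windows.
Mt1, chr19:10832976-10833225, minus strand: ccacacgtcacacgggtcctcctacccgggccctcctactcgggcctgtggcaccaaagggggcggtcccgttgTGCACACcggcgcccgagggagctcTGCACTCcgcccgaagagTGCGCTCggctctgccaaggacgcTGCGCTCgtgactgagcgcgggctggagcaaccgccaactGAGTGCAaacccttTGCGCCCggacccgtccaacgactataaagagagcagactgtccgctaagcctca
Mt2A, chr19:10838709-10838958, minus strand: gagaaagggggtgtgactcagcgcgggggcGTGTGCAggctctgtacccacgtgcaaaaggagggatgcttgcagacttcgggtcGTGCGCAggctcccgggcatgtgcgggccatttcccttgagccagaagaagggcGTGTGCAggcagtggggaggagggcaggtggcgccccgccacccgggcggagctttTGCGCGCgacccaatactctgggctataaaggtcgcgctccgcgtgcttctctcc
Slc30a1, chr13:106021769-106022018, plus strand: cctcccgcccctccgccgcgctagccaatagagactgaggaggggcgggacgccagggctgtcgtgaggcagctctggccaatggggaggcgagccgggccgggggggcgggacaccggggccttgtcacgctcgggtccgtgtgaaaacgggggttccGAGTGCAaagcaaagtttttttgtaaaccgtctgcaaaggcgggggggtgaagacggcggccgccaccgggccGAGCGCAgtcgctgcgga
The Mt1 window held 6 matches, 5 of them on the strand of the gene, between 55 and 176 bases before the start. The Mt2A window held 4, of which 1 was on the strand of the gene. Both matches of the Slc30a1 window were on the opposite strand. Of all 33469 windows in the RefSeq table, 20.6% held at least 1 match, 4.9% at least 2, 1.17% at least 3 and 0.266% at least 4. A window was found for 31 of the 36 genes, of which 14 held at least 1 match, 11 at least 2 and 5 at least 3. Those 5 were Mt1, Mt2A, Slc39a7 with 4, and Mt3 and Tfrc with 3 each. Overlapping matches were each counted, as in Slc30a5, Slc39a11, Slc39a7 and Tfrc. Of the genes, 3 had several windows, whereas the shares over all windows count each window. Slc30a2, with windows of 2 and 0 matches, was counted with 2. All of these are matches of letters and were not tested as binding sites.

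No zinc, iron or copper gene passed an adjusted p of 0.1 (limma, Benjamini-Hochberg over all 31042 probe sets), where 0.204% of the 14217 genes did. The smallest adjusted p among the 36 genes was 0.207, for the zinc and iron importer Slc39a14. At an unadjusted p under 0.05 stood 12 of the 36 genes, or 33.3%, against a background of 18.5% of all genes. Of these, 6 were higher in Si deplete kidneys (16.7%, background 10.5%) and 6 lower (16.7%, background 7.95%). The higher genes were Hmox1, Slc39a6, Slc39a14, Mt2A, Slc30a7 and Slc39a1. The lower genes were Alas2, Slc30a1, Slc39a8, Slc31a1, Slc30a9 and Slc30a4. The groups did not overlap in 7 of the 36 genes (19.4%), against 11.9% of all genes. Adjusted p for the 12 genes lay between 0.207 and 0.325, so each difference below is a value that missed the threshold over all probe sets. All differences are Si deplete minus Si replete on the log2 scale of the deposited gcRMA levels, where 1 is a doubling.

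The median difference over the 36 genes was 0.0088, and over all genes 0.00013. The median size of the difference regardless of sign was 0.16 over the 36 genes and 0.13 over all genes. The 2 directions therefore balanced within the set while its single differences were somewhat larger than those of a typical gene. Levels under 4 were called dim, since the median probe set of each array lay at 3.80 to 3.92. By that mark 8 of the 36 genes were dim and 28 were not, while 4728 of all 14217 genes were dim. Dim genes were thus a smaller share of the set than of all genes. The part of this in the larger differences and counts of the set was not tested.

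**Figure D1:**
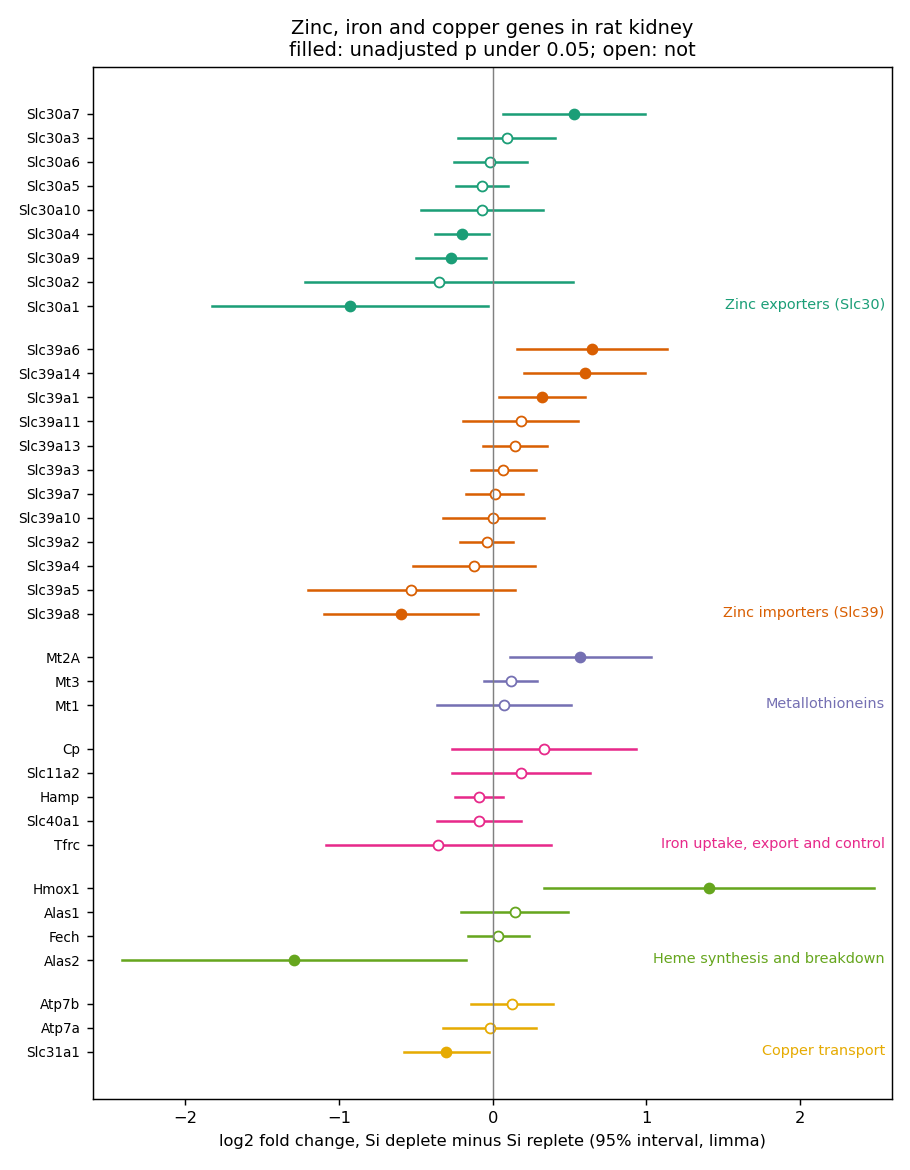
Difference in log2 gcRMA level between 4 Si deplete and 4 Si replete kidneys (x axis, Si deplete minus Si replete) for the 36 metal genes, one per row, coloured by role; points are estimates, lines are 95% intervals from limma, and filled points have an unadjusted p under 0.05. Hmox1 lies farthest to the right at 1.41 and Alas2 farthest to the left at -1.29, and both belong to the heme genes.

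The Si deplete rat with replicate number 1 stood apart from the other 7. On the first principal component, which held 42.1% of the variance, it lay at -64.0 while the others lay between -19.2 and 25.9. Its median distance from the gene means was 0.27 over the 36 genes, against 0.11 to 0.18 for the other arrays. It was at one end of the Si deplete group, highest or lowest, in 22 of the 36 genes and in 9 of the 12. Replicates 2, 3 and 4 were so in 16, 15 and 19 of the 36 and in 5, 3 and 7 of the 12, so this count alone sets it little apart. Without it, 7 of the 12 genes stayed at an unadjusted p under 0.05 (limma), namely Slc39a1, Slc39a6, Slc39a8, Slc39a14, Mt2A, Alas2 and Hmox1. Leaving out Si deplete replicate 2, 3 or 4 kept 10, 9 and 9 of them. Leaving out Si replete replicate 1 kept only 4, which were Slc30a4, Slc39a6, Slc39a14 and Hmox1, and leaving out Si replete replicate 2, 3 or 4 kept 8, 7 and 8. The share of all genes at that p was also lower then, at 15% when Si deplete replicate 1 was left out and 15.1% when Si replete replicate 1 was. Over the 8 fits, Slc30a1 stayed at that p in 2, Slc30a4, Slc30a7 and Slc31a1 in 3 each, and Alas2 in 4. Slc30a9 did so in 5, Slc39a1, Slc39a8 and Mt2A in 6 each, and Slc39a6, Slc39a14 and Hmox1 in all 8.

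**Figure D2:**
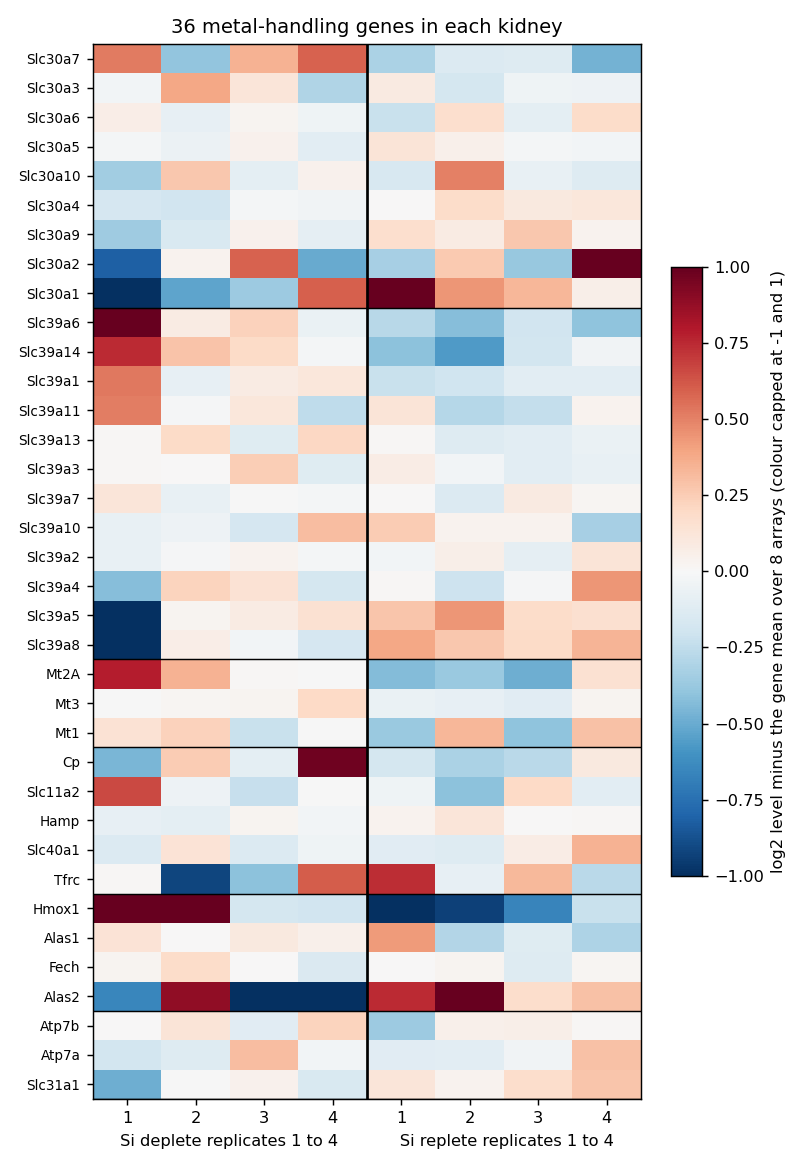
Each of the 36 metal genes (rows, grouped by role) in each of the 8 kidneys (columns), coloured by log2 level minus the mean of the gene over the 8 arrays, with colours capped at -1 and 1. The first column, Si deplete replicate 1, has the largest median distance from the gene means (0.27), with Hmox1, Slc39a6 and Mt2A high and Slc30a1, Slc39a8 and Slc39a5 low.

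Among the 9 zinc exporters, 1 was higher and 3 were lower at an unadjusted p under 0.05, where 10.5% and 7.95% of all genes were. The largest difference was in Slc30a1 (ZnT1), the exporter of the plasma membrane. Its level was 3.79, 4.83, 4.99 and 5.95 in the Si deplete kidneys and 6.38, 5.80, 5.69 and 5.42 in the Si replete kidneys. Si deplete replicate 1 was lowest, and replicate 4 lay within the Si replete range. The difference was -0.93 ± 0.40 (SE; limma adjusted p = 0.325, exact permutation p = 0.114), or 1.90-fold lower, and without Si deplete replicate 1 it was -0.56. It stayed at an unadjusted p under 0.05 in 2 of the 8 fits that each left out 1 array.

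Slc30a7 (ZnT7), which loads zinc into the Golgi, was the exporter on the higher side. It was at 6.65, 5.73, 6.47 and 6.71 in Si deplete kidneys and at 5.81, 5.99, 5.99 and 5.65 in Si replete kidneys. In all, 3 of the Si deplete rats lay above every Si replete rat, and replicate 2 lay among them. The difference was 0.53 ± 0.20 (SE; limma adjusted p = 0.284, exact permutation p = 0.114). The other early secretory exporters, Slc30a5 and Slc30a6, which work as a pair, had differences of -0.07 and -0.01.

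Slc30a4 (ZnT4), which fills vesicles and lysosomes with zinc, was at 8.94, 8.92, 9.09 and 9.08 in Si deplete kidneys and at 9.11, 9.29, 9.21 and 9.22 in Si replete kidneys. The groups did not overlap, although the gap between them was narrow. The difference was -0.20 ± 0.08 (SE; limma adjusted p = 0.286, exact permutation p = 0.029). That two-sided p is the smallest that 4 against 4 arrays allow (70 arrangements), and every gene without overlap reaches it. A second Slc30a4 probe set was dim, at 2.19, and differed by 0.11. Slc30a9 (ZnT9), a zinc exporter of mitochondria, was at 9.66, 9.86, 10.06 and 9.93 against 10.18, 10.10, 10.28 and 10.05, so that Si deplete replicate 3 alone reached the Si replete range. Its difference was -0.27 ± 0.10 (SE; limma adjusted p = 0.271, exact permutation p = 0.057). Of its other probe sets, one at 6.60 differed by -0.42 and a dim one by 0.01. Slc30a2, a vesicle exporter known from the mammary gland, differed by -0.35 and by -0.44 on its second probe set. Its rats ranged from 3.68 to 5.64, and the groups overlapped widely. The synaptic vesicle exporter Slc30a3 and the manganese exporter Slc30a10 were dim, with differences of 0.09 and -0.07.

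**Figure D3:**
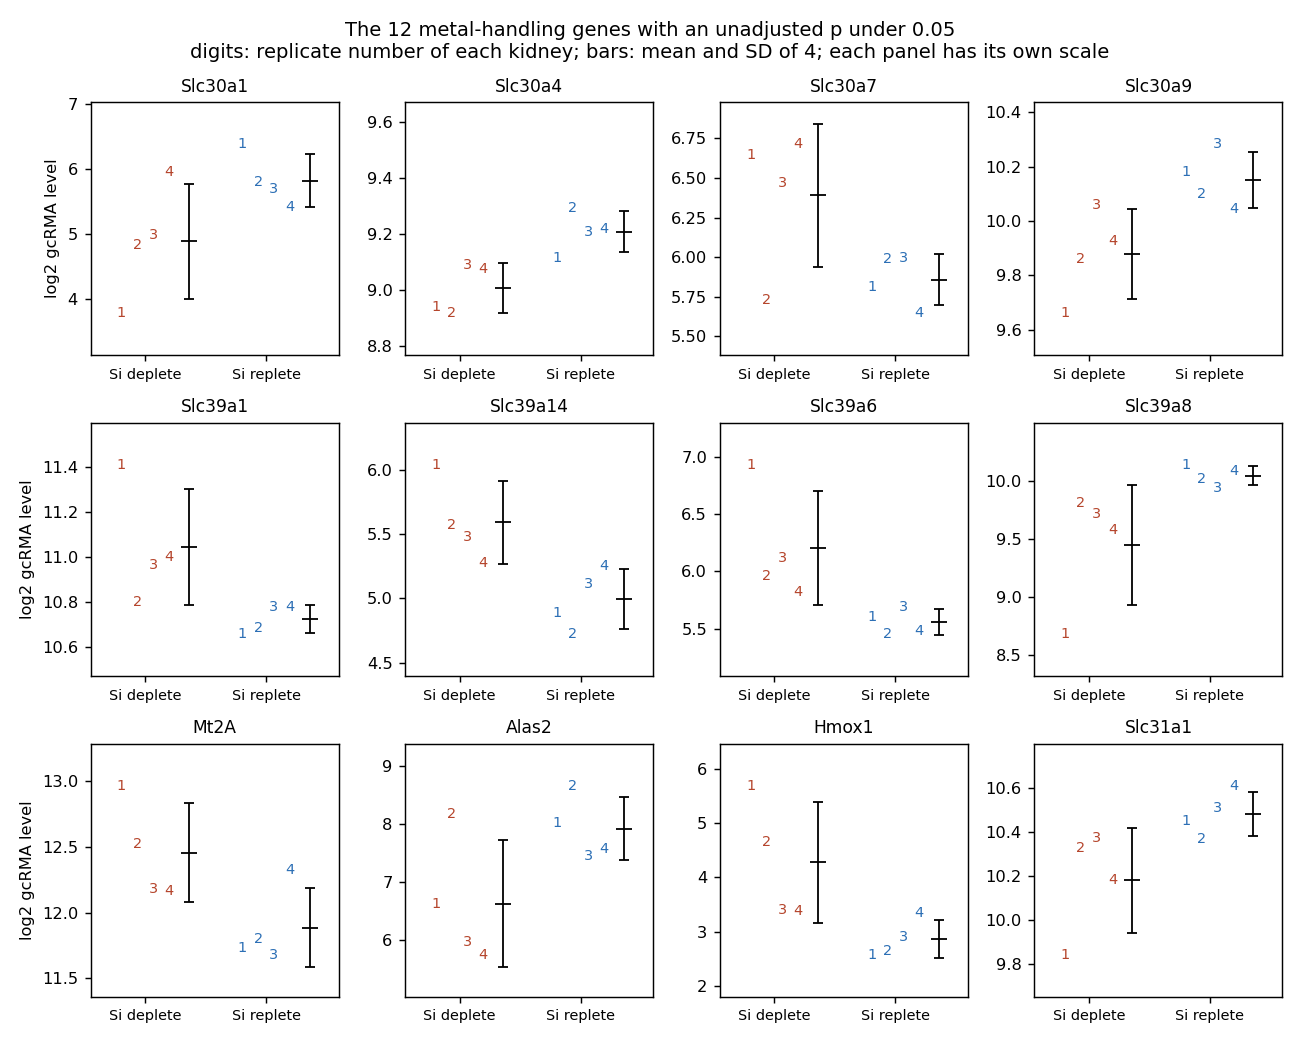
Log2 gcRMA level (y axis, own scale in each panel) of the 12 metal genes with an unadjusted p under 0.05, for Si deplete and Si replete kidneys; digits are replicate numbers, with the group mean and its SD (n = 4) as bars. The digits of the groups do not mix for Slc30a4, Slc39a1, Slc39a14, Slc39a6, Slc39a8 and Hmox1. Si deplete replicate 1 is the highest or lowest digit of its group in 9 of the 12 panels, and Si deplete replicate 4 in 7.

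Of the 12 zinc importers, 3 were higher and 1 was lower at an unadjusted p under 0.05 (background 10.5% and 7.95%), and in 5 the groups did not overlap (background 11.9%). Slc39a14 (ZIP14), which carries zinc, manganese and iron not bound to transferrin, was at 6.04, 5.58, 5.48 and 5.27 in Si deplete kidneys. In Si replete kidneys it was at 4.89, 4.72, 5.11 and 5.26. All Si deplete rats were above all Si replete rats, with Si deplete replicate 4 and Si replete replicate 4 almost level. The difference was 0.60 ± 0.17 (SE), or 1.51-fold, with a limma adjusted p of 0.207 and an exact permutation p of 0.029. It stayed at an unadjusted p under 0.05 in all 8 fits that left out 1 array, between 0.45 and 0.70. Its second probe set was dim, at 3.28, and differed by -0.09.

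Slc39a6 (ZIP6), an importer of the plasma membrane, was at 6.92, 5.96, 6.11 and 5.82 in Si deplete kidneys and at 5.60, 5.46, 5.69 and 5.48 in Si replete kidneys. The groups did not overlap, and Si deplete replicate 1 was the highest by far. The difference was 0.65 ± 0.22 (SE; limma adjusted p = 0.238, exact permutation p = 0.029), and 0.41 without that rat. Both other probe sets of Slc39a6 were dim, with differences of 0.25 (adjusted p = 0.289, limma) and 0.01. Its partner Slc39a10, with which it forms a complex, differed by 0.01.

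Slc39a1 (ZIP1), a widely expressed importer, was at 11.41, 10.80, 10.97 and 11.00 in Si deplete kidneys and at 10.66, 10.68, 10.78 and 10.78 in Si replete kidneys. The lowest Si deplete rat lay just above the highest Si replete rat. The difference was 0.32 ± 0.12 (SE; limma adjusted p = 0.288, exact permutation p = 0.029). Without Si deplete replicate 1 it was 0.20.

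Slc39a8 (ZIP8), which carries zinc and manganese, was the importer on the lower side. It was at 8.68, 9.82, 9.72 and 9.58 in Si deplete kidneys and at 10.14, 10.02, 9.94 and 10.09 in Si replete kidneys. Every Si deplete rat was below every Si replete rat, replicate 1 by more than 1 log2 unit. The difference was -0.60 ± 0.22 (SE; limma adjusted p = 0.274, exact permutation p = 0.029). Without Si deplete replicate 1 it shrank to -0.34 and its adjusted p came to 0.224 (limma). ZIP8 and ZIP14 are the closest relatives in the family and share substrates, and here their differences had opposite signs.

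Slc39a5 (ZIP5) also did not overlap, at 3.77, 5.12, 5.18 and 5.25 against 5.37, 5.54, 5.28 and 5.26. Its difference of -0.53 had a limma adjusted p of 0.434 and rested largely on Si deplete replicate 1, without which it was -0.18. The other 6 importers beside Slc39a10 had differences between -0.12 and 0.18 and overlapped. These were Slc39a11 (0.18), Slc39a13 (0.15), Slc39a3 (0.07), Slc39a7 (0.01), Slc39a2 (-0.04) and the intestinal importer Slc39a4 (-0.12), of which the last 2 were dim.

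Of the 3 metallothioneins, Mt2A was the one at an unadjusted p under 0.05. It was at 12.96, 12.52, 12.18 and 12.16 in Si deplete kidneys and at 11.73, 11.80, 11.68 and 12.33 in Si replete kidneys. Si replete replicate 4 lay above 2 of the Si deplete rats, and the other 3 Si replete rats lay below all of them. The difference was 0.57 ± 0.20 (SE; limma adjusted p = 0.259, exact permutation p = 0.086), or 1.49-fold, and 0.40 without Si deplete replicate 1. Mt1 was at 4.35, 4.44, 3.98 and 4.20 against 3.83, 4.54, 3.81 and 4.50, which overlapped fully, with a difference of 0.07. Mt3, known from brain, was dim and differed by 0.12. Thus of the genes whose windows are printed above, Mt2A was higher and Slc30a1 lower at this p, while Mt1, whose window held the most matches, differed little. Mt1 was read at 4.21 on average, just above the dim mark, against 12.17 for Mt2A. Low levels are compressed, so a difference in Mt1 could have been missed. The zinc sensor gene Mtf1 itself differed by 0.11 (adjusted p = 0.546, limma).

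No gene of iron uptake, export and control was at an unadjusted p under 0.05 on its brightest probe set. The smallest p was that of Hamp (hepcidin), the hormone from liver that closes ferroportin. Its level was 1.24, 1.23, 1.35 and 1.30 in Si deplete kidneys and 1.36, 1.44, 1.33 and 1.34 in Si replete kidneys, and at 1.32 on average it lay near the bottom of the scale. The difference was -0.09 (limma adjusted p = 0.584, exact permutation p = 0.086). Ferroportin, Slc40a1, differed by -0.09, and its other 2 probe sets by 0.04 and -0.07. The transferrin receptor Tfrc differed by -0.35 ± 0.33 (SE; limma adjusted p = 0.645), and by -0.33 on its second probe set. Its rats were spread from 8.25 to 9.91, with the highest and the lowest in different groups and wide overlap.

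The iron genes Cp and Slc11a2 gave different answers by probe set. Ceruloplasmin, Cp, is the copper enzyme that oxidises iron as it leaves cells. Its brightest probe set differed by 0.33 ± 0.26 (SE; limma adjusted p = 0.585), which came to 0.54 without Si deplete replicate 1 and 0.06 without Si deplete replicate 4. Its second was at 9.77, 9.58, 8.98 and 10.49 in Si deplete kidneys and at 8.61, 8.22, 8.15 and 9.04 in Si replete kidneys. There only Si replete replicate 4 reached above the lowest Si deplete rat, and the difference was 1.20 ± 0.31 (SE; limma adjusted p = 0.178, exact permutation p = 0.057). The third differed by 0.83 (adjusted p = 0.291). All 3 were higher in Si deplete kidneys, and on all 3 Si deplete replicate 4 was the highest of the 8 rats.

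Slc11a2 (DMT1), the importer of ferrous iron, differed by 0.18 (limma adjusted p = 0.700) on its brightest probe set, and by -0.01 without Si deplete replicate 1. Its second probe set was at 6.44, 6.05, 5.89 and 5.98 in Si deplete kidneys and at 5.82, 5.42, 5.85 and 5.44 in Si replete kidneys. There the groups did not overlap, and the difference was 0.46 ± 0.15 (SE; limma adjusted p = 0.237, exact permutation p = 0.029). The genes of the set with 1 probe set numbered 23, so for most of them no such check was possible.

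**Figure D4:**
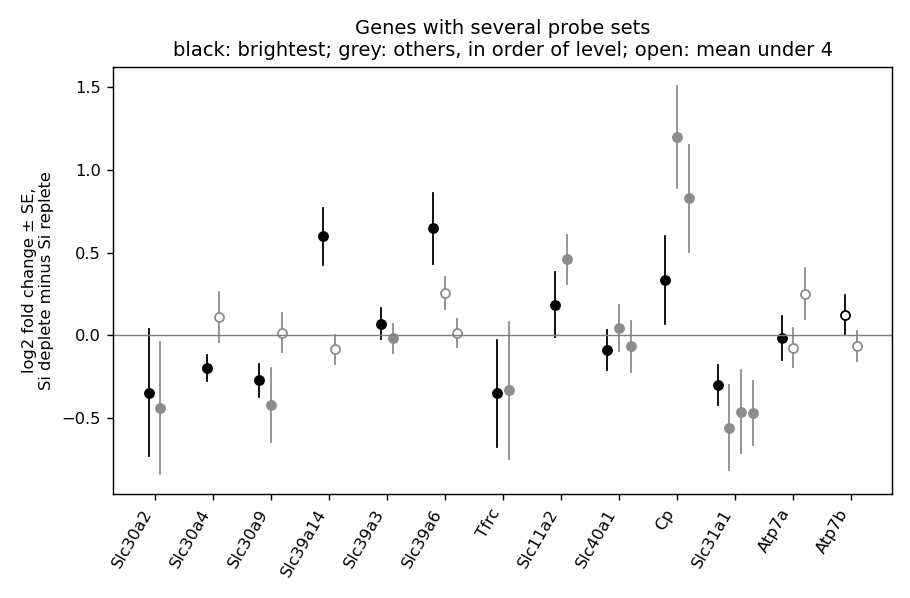
Difference in log2 level, Si deplete minus Si replete (y axis, points with SE), for each probe set of the 13 metal genes that have several; black is the brightest probe set, grey the others in order of level, and open points have a mean under 4. All 4 Slc31a1 probe sets lie below 0 and all 3 Cp probe sets above it, while the dim second probe set of Slc39a14 lies at -0.09 against 0.60 on the brightest.

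The heme genes held the largest differences of the set, higher for the breakdown enzyme Hmox1 and lower for the synthase Alas2. Hmox1, the inducible heme oxygenase that opens the heme ring and frees its iron, was at 5.68, 4.65, 3.39 and 3.38 in Si deplete kidneys. In Si replete kidneys it was at 2.58, 2.64, 2.91 and 3.35. The groups did not overlap, but Si deplete replicates 3 and 4 lay only just above Si replete replicate 4. The difference was 1.41 ± 0.48 (SE; limma adjusted p = 0.243, exact permutation p = 0.029), or 2.65-fold, from a probe set that was dim on average, at 3.57. Without Si deplete replicate 1 it was 0.94. It stayed at an unadjusted p under 0.05 in all 8 fits that left out 1 array.

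Macrophages, which clear red cells, are rich in Hmox1, and stressed tubules switch it on. Of 12 macrophage and myeloid markers 11 had differences above 0, as did 7115 of all 14217 genes. The median over the 12 was 0.58, and 5 were higher at an unadjusted p under 0.05 (background 10.5%). Their summed level ranged from 13.1 to 13.9 in the Si deplete group and from 12.8 to 13.4 in the other. Most of that sum came from Cd74 (0.34) and Lyz2 (0.33), neither of which was at that p. The marker below 0 was Cd163 at -0.03, which lay near the bottom of the scale at 1.80. Of 9 tubule injury genes 7 were higher at that p, all 7 without overlap (background 11.9% of genes in either direction), and their summed level was 14.5 to 15.6 against 13.4 to 14.1. The injury marker Havcr1 alone differed by 3.66. Si deplete replicate 1 had both the highest summed injury level and the highest Hmox1. Its summed macrophage level was the lowest of the Si deplete group, at 13.1. Si deplete replicate 4 had the next highest summed injury level, at 15.1, but the lowest Hmox1 of its group, at 3.38. The part of these markers in the Hmox1 difference was not tested.

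Alas2, the first enzyme of heme synthesis in red cell precursors, was at 6.63, 8.16, 5.98 and 5.75 in Si deplete kidneys and at 8.03, 8.65, 7.45 and 7.57 in Si replete kidneys. Si deplete replicate 2 was the second highest of all 8 rats, and the other 3 lay below every Si replete rat. The difference was -1.29 ± 0.50 (SE; limma adjusted p = 0.283), or 2.45-fold lower, and the exact two-sided permutation p was 0.114. Leaving out Si deplete replicate 1 hardly moved it (-1.29).

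Beta globin, Hbb, was at 12.80, 13.19, 12.42 and 12.46 in Si deplete kidneys and at 13.17, 13.38, 13.01 and 13.00 in Si replete kidneys. The same rats were at the ends as for Alas2, with Si deplete replicate 2 and Si replete replicate 2 at the top of their groups and Si deplete replicates 3 and 4 lowest. Of 5 red cell markers measured, 3 were lower at an unadjusted p under 0.05 (background 7.95%), namely Hbb (-0.42), Ahsp (-0.52) and Epb42 (-0.29). Ahsp and Epb42 were dim, at 3.51 and 2.53. Slc4a1 differed by -0.26 and Rhag, also dim, by 0.06. Not all of them followed Alas2 by rat. Within the Si deplete group, Ahsp (3.60) and Rhag (1.86) were highest in replicate 2, as Alas2 was. Slc4a1 was highest there in replicate 3 (9.65) and Epb42 in replicate 4 (2.52). The summed level of the 5, most of it from Hbb, ranged from 12.6 to 13.3 in the Si deplete group and from 13.1 to 13.5 in the other. The part of these markers in the Alas2 difference was not tested. The last enzyme Fech, which puts iron into the ring, differed by 0.04 with wide overlap. The housekeeping synthase Alas1 was at 10.02, 9.88, 9.98 and 9.93 in Si deplete kidneys and at 10.31, 9.59, 9.76 and 9.58 in Si replete kidneys, so that only Si replete replicate 1 lay above the lowest Si deplete rat. Its difference was 0.14 (limma adjusted p = 0.700), and 0.31 (limma adjusted p = 0.297) without Si replete replicate 1, where it was at an unadjusted p under 0.05. It came to 0.07 without Si replete replicate 2 or 4.

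**Figure D5:**
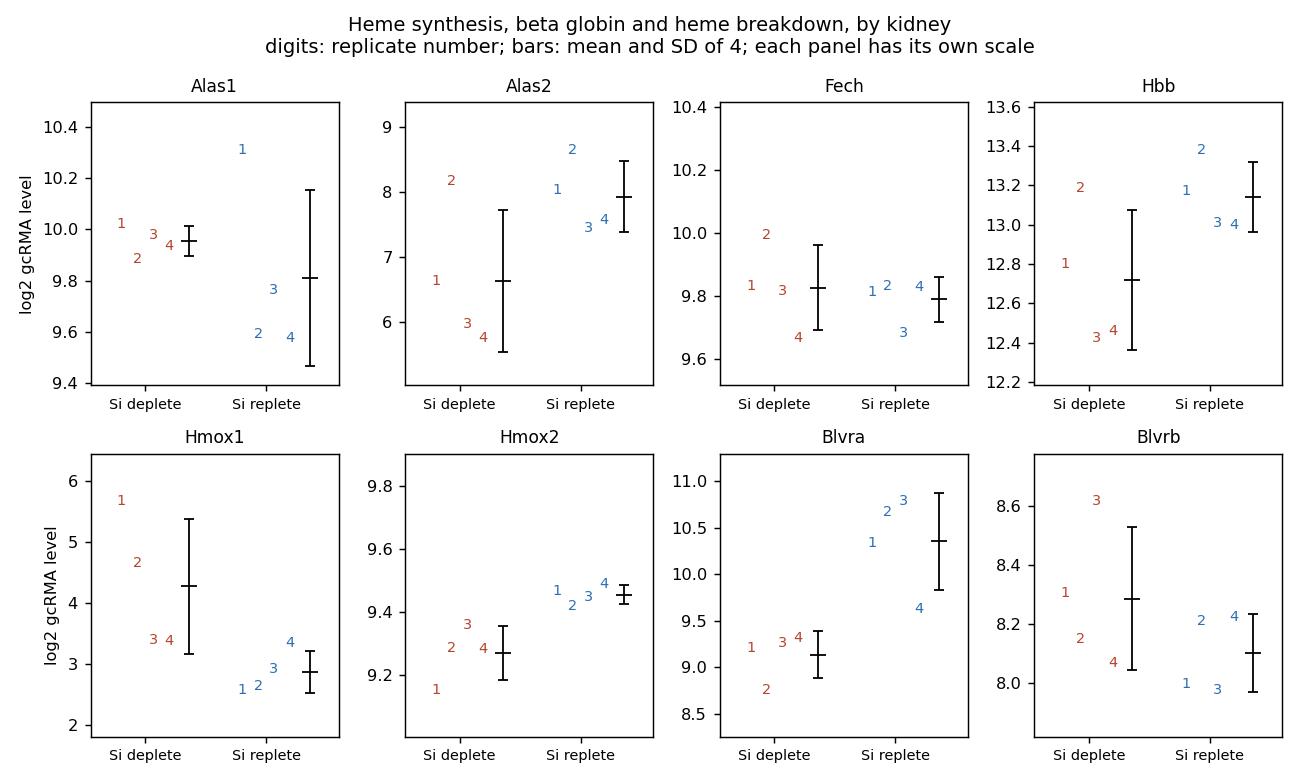
Log2 gcRMA level (y axis, own scale in each panel) of heme synthesis genes, beta globin and heme breakdown genes in Si deplete and Si replete kidneys; digits are replicate numbers, with the group mean and its SD (n = 4) as bars. Alas2 and Hbb share their highest rat and their 2 lowest, Hmox1 is highest in Si deplete replicate 1 at 5.68, and all Si deplete kidneys lie below all Si replete kidneys for Hmox2 and Blvra.

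Slc31a1 (CTR1), through which copper enters cells, was lower in Si deplete kidneys on each of its 4 probe sets. The brightest was at 9.84, 10.33, 10.37 and 10.18 in Si deplete kidneys and at 10.45, 10.37, 10.51 and 10.61 in Si replete kidneys. Si deplete replicate 3 just reached the lowest Si replete rat, and replicate 1 was far below. The difference was -0.30 ± 0.12 (SE; limma adjusted p = 0.302, exact permutation p = 0.057). The second was at 7.81, 9.03, 9.11 and 8.87 against 9.16, 9.22, 9.29 and 9.39, which did not overlap. Differences on the other probe sets were -0.56, -0.46 and -0.47. They came to -0.26, -0.18 and -0.26 without Si deplete replicate 1, and to -0.19 on the brightest. The copper pump Atp7a differed by -0.02 and Atp7b, which was dim, by 0.12.

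Beyond these genes, 66 of 74 other iron, heme, copper, iron-sulfur and zinc-linked genes were measured, and none passed an adjusted p of 0.1. At an unadjusted p under 0.05 were 13 of them (19.7%, background 18.5%). Of these, 5 were higher (7.58%, background 10.5%) and 8 lower (12.1%, background 7.95%). In 15.2% the groups did not overlap (background 11.9%).

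Of 18 other iron genes, 3 were higher and 2 lower at that p (background 10.5% and 7.95%). Lcn2, a secreted protein that binds iron-carrying siderophores and is also one of the tubule injury genes above, was at 13.30, 10.82, 10.29 and 11.80 in Si deplete kidneys. In Si replete kidneys it was at 9.95, 8.00, 8.17 and 9.28, so that the groups did not overlap. The difference was 2.70 ± 0.66 (SE; limma adjusted p = 0.170, exact permutation p = 0.029), larger than that of any of the 36 genes, and 2.12 without Si deplete replicate 1. Steap1, of a family of metal reductases, differed by 1.10 (adjusted p = 0.309) with overlap. Ireb2, an iron regulatory protein that binds transferrin receptor and ferritin messages, differed by -0.23 (adjusted p = 0.316), and Tfr2, a second transferrin receptor that was dim, by -0.26 (adjusted p = 0.293).

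Of 17 other heme genes, 1 was higher and 3 were lower at that p (background 10.5% and 7.95%). Blvra, which reduces the biliverdin left by heme oxygenase to bilirubin, was at 9.21, 8.76, 9.26 and 9.32 in Si deplete kidneys and at 10.33, 10.67, 10.79 and 9.63 in Si replete kidneys. The groups did not overlap, and Si replete replicate 4 lay nearest to the Si deplete rats. The difference was -1.22 ± 0.24 (SE; limma adjusted p = 0.136, exact permutation p = 0.029), or 2.32-fold lower. Without Si replete replicate 4 it was -1.46 and the adjusted p became 0.0924, which is under 0.1. Hmox2, the constitutive heme oxygenase, differed by -0.19 (adjusted p = 0.289) with no overlap. Abcb6, a porphyrin transporter, differed by -0.29 (adjusted p = 0.288), and the heme scavenger Hpx, which was dim, by 0.37 (adjusted p = 0.180). Hence among the enzymes that break down heme, Hmox1 was higher while Hmox2 and Blvra were lower at that p, each short of the threshold over all probe sets. Blvrb, the other biliverdin reductase, differed by 0.18 (adjusted p = 0.532) with overlap.

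Of 13 other copper genes, 1 was higher and 1 lower at that p (background 10.5% and 7.95%). Loxl1, a copper enzyme that crosslinks elastin, differed by 1.03 ± 0.29 (SE; limma adjusted p = 0.205, exact permutation p = 0.029) and did not overlap. Commd1, which takes part in copper export, differed by -0.17 (adjusted p = 0.317), the copper chaperone Ccs by -0.22 (adjusted p = 0.350) and the copper enzyme Dbh, which was dim, by -0.13. Of 9 iron-sulfur cluster genes, 8 had differences below 0, as did 7102 of all 14217 genes. Among the 9, Isca1 alone reached an unadjusted p under 0.05 (-0.18, adjusted p = 0.304), where 7.95% of all genes were lower. Lyrm4, Nfs1 and Isca2 followed at -0.17, -0.13 and -0.14. Of 9 zinc-linked genes, Alpl, the zinc enzyme tissue-nonspecific alkaline phosphatase, was lower at that p (-1.02 ± 0.35 SE, limma adjusted p = 0.244, exact permutation p = 0.057). Tmem163 and Kcnk1 differed by -0.39 and 0.14.

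The tissue label was checked against markers. All 10 proximal tubule markers were measured, at levels from 8.79 to 12.92, and none of them was at an unadjusted p under 0.05, while 7 liver markers lay between 1.58 and 4.88. The summed proximal tubule level was lowest in Si deplete replicate 1, at 14.97. It was 15.34 to 15.56 in the other Si deplete rats and 15.44 to 15.59 in the Si replete rats. The part of this in the differences of the metal genes was not tested. Among 5 podocyte markers 2 were lower at that p (background 7.95%).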

How the data were processed

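RNA of 8 left kidneys, 4 Si deplete and 4 Si replete, was hybridised to 1-colour Affymetrix rat genome arrays. The authors deposited log2 values per probe set, already background corrected, normalised and summarised by gcRMA (GCRMA 2.36.0 in the submitters' processing notes). Normalisation across arrays assumes like distributions, and low levels are compressed. The files hold no counts, so the number of arrays limits the precision. Control probe sets were left out, which left 31042, of which 20826 carried 1 symbol, 436 several and 9780 none. All 36 genes matched RefSeq by Entrez ID.

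Groups were compared with limma 3.58.1 in R 4.3.3 (lmFit, eBayes, Benjamini-Hochberg over all probe sets, adjusted p under 0.1, the threshold of the study's methods), without a filter on low levels. Exact two-sided permutation tests ran over 70 arrangements of single genes. The limma p-values weigh each group difference against the spread between these rats, drawn towards the spread typical of all probe sets. Both tests treat the rats as independent, although which of them shared a cage is not known here. The limma test was checked on simulated data. Values of all 8 arrays are given for genes at an unadjusted p under 0.05 and for the smallest p of each role, and 4 genes per wider list by p, to which a few values of other probe sets, genes and markers were added after they were seen. The genes and lists were chosen with earlier results of these data known. Alternatives were an intensity trend, array weights, a filter on dim probe sets, median subtraction, quantile normalisation, a replicate block, leaving out each array, the mean of the probe sets, Storey's q-value and an adjusted p under 0.05. Promoters came from RefSeq's GRCr8.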

Additional observations from a re-analysis of the deposited data

Results flagged for a closer look

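In 5 of the 72 sets of 4 rats formed by 36 genes and 2 groups, 1 rat lay far from the other 3 of its group, where chance does so in about 1 in 20 groups. Slc39a5 in Si deplete replicate 1 was at 3.77 while the other 3 were at 5.12 to 5.25. Slc30a10 in Si replete replicate 2 was at 2.95 while the others were at 2.29 to 2.37, a dim gene. Mt3 in Si deplete replicate 4 was at 3.70 with the others at 3.50 to 3.53, and Atp7b in Si replete replicate 1 was at 3.43 with the others at 3.80 to 3.85, both also dim. Fech in Si replete replicate 3 was at 9.68 with the others at 9.81 to 9.83. Each of these lay in a different array.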

How the results depend on the processing

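No zinc, iron or copper gene passed under any alternative run, Storey's q-value and an adjusted p under 0.05 included, and the lowest adjusted p of any of them was 0.122. The 12 genes at an unadjusted p under 0.05 kept their direction under every alternative. The number of higher genes at that p was 4 to 6 when 1 array was left out, and of lower genes 1 to 4. With the mean of the probe sets of a gene there were 6 higher and 3 lower genes: Slc30a4 (-0.05), Slc30a9 (-0.23), Slc31a1 (-0.45) and Slc39a14 (0.26) were no longer at that p, Cp (0.79) newly was, and Slc39a6 came to 0.30. The median difference was -0.0483 with the median of each array subtracted and -0.0161 to 0.0471 with 1 array left out. With the replicate number as a block, 6 genes were higher and 4 lower at that p, without Slc30a1 and Slc30a4. Same-numbered rats correlated at 0.088, 0.090, 0.079 and -0.088 in their deviations, and 4 of 8 arrays matched their own number best. With 4 rats per group, these values do not decide whether same-numbered rats are pairs. The methods state that each day 1 rat of every group was killed, and the labels do not say whether the number marks that day. The block is therefore given only as an alternative. With the block Alas2 had an adjusted p of 0.122. Among the other metal genes 1, Lcn2, passed with the block (adjusted p = 0.0756), an alternative added after seeing the data, and 0 to 1 lower gene passed with 1 array left out. Of 532 comparisons of single genes 27 changed sign, in 12 genes whose differences were -0.12 to 0.18. Array weights gave Atp7a 0.00685 and Slc39a7 -0.00452, the mean of probe sets gave Atp7a 0.0518, and median subtraction gave Fech -0.0197, Slc39a10 -0.0519 and Slc39a7 -0.0447. With 1 array left out the ranges were -0.124 to 0.0748 for Atp7a, -0.0179 to 0.0912 for Fech, -0.0494 to 0.195 for Mt1, -0.00575 to 0.292 for Slc11a2, -0.169 to 0.0880 for Slc30a10, -0.0234 to 0.205 for Slc30a3, -0.0913 to 0.0434 for Slc30a6, -0.106 to 0.0909 for Slc39a10, -0.00228 to 0.121 for Slc39a3, -0.214 to 0.00847 for Slc39a4, -0.0322 to 0.0455 for Slc39a7 and -0.150 to 0.0117 for Slc40a1. The cause of these changes was not tested. Dim probe sets limit what can be said of Hmox1, Hamp and the second probe sets of Slc39a14 and Slc30a4. The level of Mt1, just above 4, limits its reading too.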
